A study of Mus musculus with 20 samples.

Results

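The core circadian clock was described here through 10 genes, Arntl, Clock, Npas2, Per1, Per2, Per3, Cry1, Cry2, Nr1d1 and Nr1d2, which were found by exact gene name among the 55421 rows of the count table. All 10 had enough counts to be tested, between 3642 counts (Npas2) and 52784 counts (Nr1d1) over the 20 libraries. The libraries were bulk RNA-seq of mouse liver, 5 in each of the groups Rosa26 3 weeks, HIRA 3 weeks, Rosa26 6 months and HIRA 6 months. Every mouse was a wildtype C57BL/6 animal, labelled female, that received an AAV8 vector at 6 months of age. The vector carried saCas9 (the Cas9 nuclease of Staphylococcus aureus) under Tbg, a promoter active in hepatocytes, and a U6-driven sgRNA. The sgRNA targeted Hira, which encodes a chaperone of the histone variant H3.3, in the HIRA groups, and the Rosa26 locus, used as a neutral target, in the control groups. Livers were taken 3 weeks or 6 months after injection. Other liver cells do not use the Tbg promoter, so the edit is directed at hepatocytes while the RNA is that of the whole liver.

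The clock is a transcriptional feedback loop. Arntl (also called Bmal1) pairs with Clock or with its paralog Npas2 and activates genes with E-boxes, among them the Per and Cry genes, whose proteins then hold the activator back, and Nr1d1 and Nr1d2 (also called Rev-erb alpha and beta), nuclear receptors that repress Arntl, Clock, Npas2 and Cry1. In mouse liver the transcripts of Arntl, Npas2, Clock and Cry1 are therefore high around late night and early day, when those of Nr1d1, Nr1d2, Per3 and the output factor Dbp are low or only starting to rise. Per1 also answers to feeding and glucocorticoid signals outside the loop.

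Promoter sequences are shown for Per3, the member with the largest fold changes in the comparisons that use Rosa26 3 weeks, for Cry1, which moved with the activators, for Per1, which moved with no other member, and for Arntl, the reference for the phase relations. RefSeq promoters (GRCm38.p6) were found for 9 of the 10 genes, in 13 windows of 250 bases before a start site, and not for Per2. Capitals mark the letters searched on both strands, which were the E-box CACGTG, the D-box TTATGTAA and its variant TTACGTAA (bound by Dbp and its relatives), and the ROR element TAGGTCA (bound by the Rev-erb receptors). Per3 is at chr4:151044666-151044915 on the minus strand, Cry1 at chr10:85185055-85185304 on the minus strand, Per1 at chr11:69098699-69098948 on the plus strand and Arntl at chr7:113207215-113207464 on the plus strand.
Per3: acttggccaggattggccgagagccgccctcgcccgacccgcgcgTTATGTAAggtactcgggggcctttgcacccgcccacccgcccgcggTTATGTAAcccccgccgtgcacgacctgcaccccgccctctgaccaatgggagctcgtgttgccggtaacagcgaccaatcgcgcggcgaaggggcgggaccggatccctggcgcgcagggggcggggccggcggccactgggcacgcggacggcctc
Cry1: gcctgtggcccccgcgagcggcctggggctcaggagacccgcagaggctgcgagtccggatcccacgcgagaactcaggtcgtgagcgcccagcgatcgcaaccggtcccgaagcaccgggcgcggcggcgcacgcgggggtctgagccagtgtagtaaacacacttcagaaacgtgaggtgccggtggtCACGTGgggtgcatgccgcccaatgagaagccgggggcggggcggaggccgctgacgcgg
Per1: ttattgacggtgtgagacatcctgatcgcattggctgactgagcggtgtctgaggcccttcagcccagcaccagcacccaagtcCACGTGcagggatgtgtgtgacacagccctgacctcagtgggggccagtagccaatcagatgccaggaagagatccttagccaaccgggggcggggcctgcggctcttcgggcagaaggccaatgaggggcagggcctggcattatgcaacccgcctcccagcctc
Arntl: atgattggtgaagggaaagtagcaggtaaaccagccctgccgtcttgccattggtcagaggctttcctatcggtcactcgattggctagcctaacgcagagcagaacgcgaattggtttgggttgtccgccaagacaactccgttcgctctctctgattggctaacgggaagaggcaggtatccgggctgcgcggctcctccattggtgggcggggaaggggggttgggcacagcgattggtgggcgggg
The Per3 window held 2 D-boxes, 205 and 158 bases before the start site. An E-box stood 60 bases before the start site of Cry1 and 166 bases before the shown start site of Per1. The Arntl window had none of these letters, nor did the other Per1 window, at chr11:69099902-69100151. Over all 13 windows the E-box was in 2 and the D-box in 1, against 6.02% and 0.819% of all 32851 promoters, while the D-box variant (0.113% of all promoters) and the ROR element (2.23%) were in 0. No window of a member held more than 1 kind of motif.

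Total counts per library ranged from 19916430 to 24079736. The targeted transcript had 128 to 171 counts in the Rosa26 3 weeks libraries and 87 to 127 in the HIRA 3 weeks libraries, which did not overlap, yet the difference of -0.48 ± 0.14 (SE) on the log2 scale missed the threshold (edgeR adjusted p = 0.197). The 6-month ranges, 105 to 157 and 109 to 136, overlapped (-0.10 ± 0.14, edgeR adjusted p = 0.794), so the transcript level does not check the labels at that time. The study reported loss of HIRA protein by western blot in livers given this guide, and RNA counts do not measure protein. The 8 hepatocyte markers summed to between 1.02e+05 and 1.76e+05 CPM (counts scaled to the library's total) over all libraries, and the ranges of the groups overlapped for hepatocytes, cholangiocytes, stellate, Kupffer and endothelial cells, lymphocytes and red blood cells, except that the hepatocyte sum of HIRA 3 weeks (1.42e+05 to 1.76e+05) lay above that of Rosa26 6 months (1.02e+05 to 1.38e+05). Kupffer markers reached 1392 CPM in a Rosa26 6 months library against at most 513 CPM at 3 weeks. Whether cell makeup had a part in the results was not tested, and in bulk liver fewer cells of a type and less RNA per cell cannot be told apart. The library labelled HIRA 6 months replicate 5 went against the female label, with 9 counts of Xist where the other 19 had 6286 to 8436. It had 2041 counts of Y-linked genes, where the others had 0 to 13. The study's text calls the mice of this time course male, while a figure legend calls them female. The hour at which livers were taken is not given in the sources used here, so the state of the clock and the hour of collection cannot be told apart.

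Levels per length were compared first, in RPKM, which is CPM divided by the exon length of the gene in kilobases. Nr1d1 had the highest level in all 4 groups, with means of 17.6 ± 8.44 RPKM in Rosa26 3 weeks, 47.6 ± 10.6 in HIRA 3 weeks, 46.9 ± 11.3 in Rosa26 6 months and 45.9 ± 23.7 in HIRA 6 months (SD, n = 5 each). Its lowest library stood above the highest library of the next gene in each group. That next gene was Cry1 in Rosa26 3 weeks (7.13 ± 1.48 RPKM) and Nr1d2 in the other groups (10.4 ± 2.25, 9.16 ± 1.33 and 9.08 ± 2.63 RPKM). The lowest gene was Per3 in Rosa26 3 weeks, at 0.343 ± 0.152 RPKM, below all libraries of Per2 (1.71 ± 0.404 RPKM). In the other groups Npas2 was lowest, at 1.08 ± 0.774, 1.27 ± 0.581 and 1.10 ± 1.25 RPKM, and overlapped with Clock, its neighbour in the order. Between the ends, most neighbours overlapped: the exceptions were Npas2 above Clock in Rosa26 3 weeks and Cry2 above Cry1 in Rosa26 6 months. Reads of Nr1d1 may be shared with Thra, a thyroid hormone receptor gene on the opposite strand that overlaps it by 263 exonic bases and had 22.9% as many counts.

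**Figure D1:**
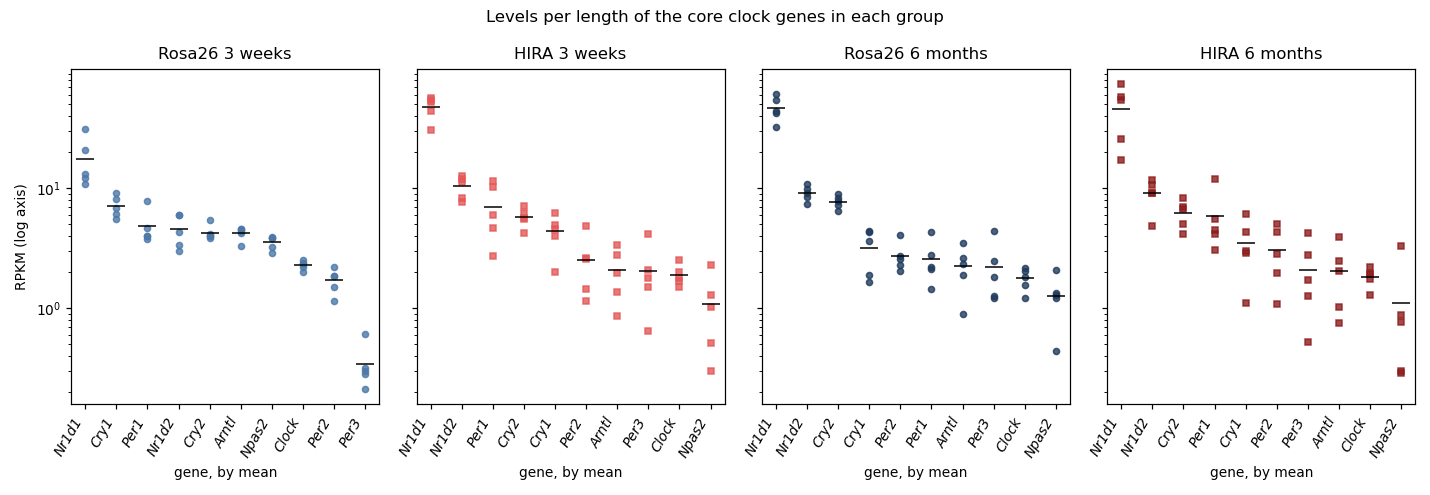
Levels per length (RPKM, log axis) of the 10 genes in each group, ordered by the group mean (black line), with 1 point per library. Nr1d1 stands alone at the top of every panel, and Per3 is last in Rosa26 3 weeks, 8th in HIRA 3 weeks and Rosa26 6 months and 7th in HIRA 6 months.

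The comparison at 3 weeks asked how the genes differed early after the edit. Per3 and Nr1d2 were higher in HIRA 3 weeks than in Rosa26 3 weeks by both thresholds (absolute log2 fold change over 1 and edgeR adjusted p under 0.05), and the activators Npas2 and Arntl were at lower levels without passing. Past both thresholds were 2 of the 10 members, both higher, against 0.114% of all 22867 genes tested. At an unadjusted p under 0.05 there were 6 members, 4 higher and 2 lower, against 8.87% of all genes. The groups did not overlap for 3 members, Per3, Nr1d2 and Npas2, against 2.69% of all genes in either direction. The median absolute log2 fold change of the members was 0.87, against 0.19 over all genes.

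Among the activators, Arntl, the obligate partner of the complex, had 652, 687, 539, 760 and 690 counts in replicates 1 to 5 of Rosa26 3 weeks and 223, 442, 521, 149 and 309 in those of HIRA 3 weeks. The highest HIRA library reached only just above the lowest control on the log2 CPM scale, for a log2 fold change of -1.04 ± 0.39 (SE) that did not pass (edgeR adjusted p = 0.395). Npas2, the paralog of Clock, had 360, 308, 300, 412 and 403 counts in the controls and 53, 131, 225, 33 and 103 counts in the HIRA libraries. All HIRA libraries were below all controls, yet they spread over a 7.15-fold range where the controls spread over a 1.35-fold range, and the log2 fold change of -1.72 ± 0.55 did not pass (edgeR adjusted p = 0.257). Clock itself ranged from 586 to 707 counts in the controls and from 466 to 713 in the HIRA libraries, and their log2 fold change of -0.27 ± 0.16 did not pass (edgeR adjusted p = 0.681).

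Among the repressors, Per3 had the largest difference of the 10. Its counts were 40, 58, 66, 60 and 125 in Rosa26 3 weeks and 312, 366, 127, 909 and 421 in HIRA 3 weeks. The lowest HIRA library, replicate 3, was almost at the level of the highest control, replicate 5 (2.64 and 2.56 log2 CPM), and the other 4 were well above. The rise of Per3 was 2.56 ± 0.53 in log2 units and passed (edgeR adjusted p = 0.0455). Part of the Per3 locus overlaps the introns of Camta1 on the same strand, with no shared exonic base. Per2, a paralog with the same role, had 132, 259, 234, 195 and 233 counts against 184, 323, 139, 645 and 322. Its groups overlapped, and its log2 fold change of 0.56 ± 0.36 did not pass (edgeR adjusted p = 0.737) and was 0.19 without HIRA replicate 4. Per1 had 446, 523, 460, 979 and 479 counts against 1395, 330, 541, 1324 and 708. HIRA replicates 1 and 4 were above all controls and replicate 2 was below all of them, and the mean difference of 0.54 ± 0.38 on the log2 scale did not pass (edgeR adjusted p = 0.761) and was 0.29 without HIRA replicate 1 and 0.36 without HIRA replicate 4.

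The cryptochromes went in opposite directions without passing. Cry1 had 600, 406, 491, 604 and 396 counts in Rosa26 3 weeks and 291, 354, 426, 154 and 323 in HIRA 3 weeks (log2 fold change -0.71 ± 0.34, edgeR adjusted p = 0.562). Cry2 had 499, 523, 527, 557 and 731 counts against 778, 744, 554, 1023 and 822 (0.43 ± 0.16, edgeR adjusted p = 0.395). For both genes the groups overlapped.

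The Rev-erb receptors were at higher counts in HIRA 3 weeks. Nr1d2 had 320, 362, 702, 515 and 698 counts in the controls and 1400, 950, 863, 1574 and 1270 in the HIRA libraries, with no overlap, and rose by 1.19 ± 0.22 in log2 units (edgeR adjusted p = 0.0300). Nr1d1 had 739, 670, 1392, 904 and 2052 counts against 3470, 2867, 1963, 3861 and 3652. HIRA replicate 3 lay just below control replicate 5 (6.57 and 6.58 log2 CPM), and the log2 fold change of 1.43 ± 0.33 missed the threshold (edgeR adjusted p = 0.0832), while DESeq2, the test the study used, gave an adjusted p of 0.00442. DESeq2 called 3 members in this comparison, Per3, Nr1d1 and Nr1d2, and limma-voom called 1, Nr1d2. The calls of Per3 and Nr1d2 depended on single libraries: no member passed without Rosa26 3 weeks replicate 1, 2 or 4 or without HIRA 3 weeks replicate 1, 4 or 5, only Nr1d2 passed without Rosa26 replicate 3 or HIRA replicate 2, and Nr1d1 took the place of Per3 without Rosa26 replicate 5. In these fits the adjusted p ranged from 0.0240 to 0.153 for Per3 and from 0.0197 to 0.0985 for Nr1d2, and the log2 fold change from 2.13 to 2.87 and from 1.08 to 1.32.

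**Figure D2:**
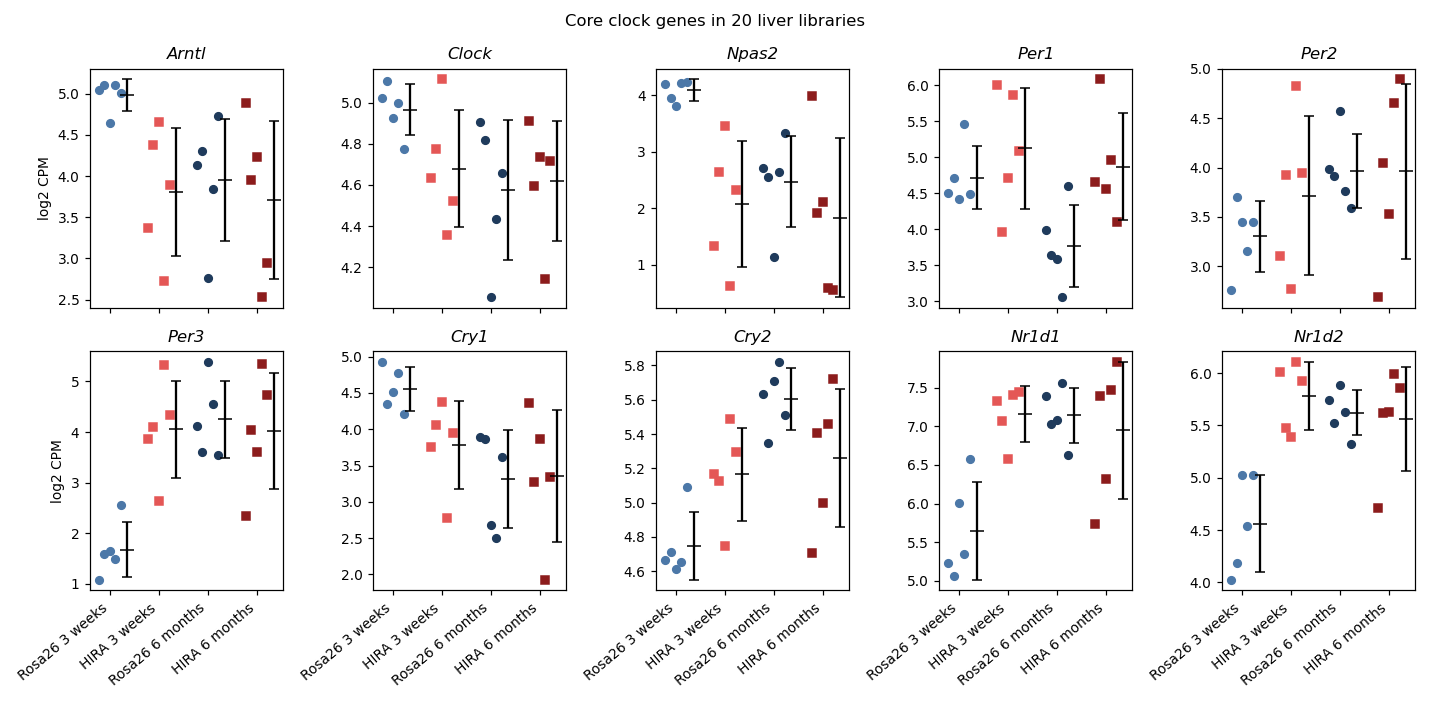
log2 CPM of the 10 genes in each of 20 libraries (1 point each, replicates 1 to 5 from left to right) with the group mean and SD in black; each panel has its own axis. Rosa26 3 weeks is the tightest group for Arntl and Npas2 and its Per3 values, 1.08 to 2.56, lie below those of all other libraries except HIRA 6 months replicate 1 (2.34).

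At 6 months HIRA was compared with Rosa26 in the same way. None of the 10 members passed both thresholds in the edgeR test, against 0.332% of all genes, and 1 had an unadjusted p under 0.05, against 15.5% of all genes. DESeq2 called 1 member, Per1, and limma-voom called 0. The groups overlapped for all 10, against 3.15% of all genes that did not overlap. The median absolute log2 fold change was 0.13 for the members and 0.24 for all genes.

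The member with the unadjusted p under 0.05 was Per1, whose counts were 368, 266, 276, 177 and 525 in Rosa26 6 months and 640, 1484, 566, 634 and 336 in HIRA 6 months. On the log2 CPM scale HIRA replicates 1, 2 and 4 lay above all controls, while replicates 3 (4.56) and 5 (4.10) lay below the highest control (4.60). Per1 had a fitted difference of 1.18 ± 0.38 in log2 units (edgeR adjusted p = 0.131), and of 1.35 without HIRA 6 months replicate 5 (edgeR adjusted p = 0.0742). Without HIRA replicate 2, the highest library, it was 0.74 (edgeR adjusted p = 0.315). DESeq2 gave it an adjusted p of 0.0385 with a log2 fold change of 1.17. Cry2 had 1159, 873, 1215, 1219 and 992 counts against 665, 928, 769, 896 and 1037, which gave -0.31 ± 0.16 in log2 units (edgeR adjusted p = 0.344) and -0.44 without HIRA replicate 5 (edgeR adjusted p = 0.137), but -0.20 without HIRA replicate 1 (edgeR adjusted p = 0.608).

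The 3 repressors with the largest differences at 3 weeks overlapped between the arms at 6 months. Per3 had 406, 260, 973, 508 and 254 counts in Rosa26 6 months and 127, 359, 292, 827 and 522 in HIRA 6 months (log2 fold change -0.09 ± 0.47). Nr1d2 had 1252, 986, 1369, 1069 and 870 counts against 668, 1075, 1187, 1295 and 1141 (-0.01 ± 0.21). Nr1d1 had 3947, 2811, 3150, 4064 and 2155 counts against 1356, 3702, 1915, 3618 and 4496 (-0.03 ± 0.33). In each of these genes HIRA replicate 1 was the lowest of the 10 libraries.

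The activators mirrored this. Arntl had 410, 422, 155, 309 and 575 counts in Rosa26 6 months and 753, 339, 452, 116 and 150 in HIRA 6 months (log2 fold change -0.13 ± 0.39), and Npas2 had 151, 124, 49, 132 and 217 against 402, 81, 102, 29 and 27 (-0.18 ± 0.55). HIRA replicate 1 was the highest library for both genes. Clock ranged from 384 to 701 counts and from 359 to 768 (0.04 ± 0.16). Of the remaining repressors, Cry1 had 347, 311, 147, 120 and 265 counts against 521, 210, 348, 76 and 198 (0.13 ± 0.35), and Per2 had 370, 321, 550, 291 and 261 against 162, 361, 276, 513 and 583 (0.15 ± 0.36). Adjusted p-values of these 8 genes in the edgeR test ranged from 0.898 to 0.999. The directions of Arntl, Npas2 and Per2 turned without HIRA 6 months replicate 5 (0.04, 0.06 and -0.11), and Per3 and Nr1d1 moved to -0.21 and -0.27.

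Whether the guide effect itself differed between the times was tested as an interaction. No member passed both thresholds in the edgeR test, and neither did any other gene (0% of all genes), so the difference between the 3-week and the 6-month result was not shown for any single gene. At an unadjusted p under 0.05 there were 4 members, all lower at 6 months relative to 3 weeks, against 6.62% of all genes, and DESeq2 and limma-voom called 0. They were Per3 (difference of log2 fold changes -2.65 ± 0.70), Nr1d2 (-1.21 ± 0.31), Cry2 (-0.74 ± 0.23) and Nr1d1 (-1.46 ± 0.47), with edgeR adjusted p-values of 0.614 for Per3, Nr1d2 and Cry2 and 0.662 for Nr1d1. The other 6 had edgeR adjusted p-values from 0.774 to 0.939.

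The controls were compared with each other, 6 months against 3 weeks. This comparison uses the same 5 Rosa26 3 weeks libraries as the comparison of the guides at 3 weeks, so the 2 results are not independent. Per3 and Nr1d2 were again past both thresholds and higher, 2 of 10 members against 0.162% of all genes. DESeq2 called 4, Per3, Cry1, Nr1d1 and Nr1d2, and limma-voom called 0. At an unadjusted p under 0.05 there were 9 members, 4 higher and 5 lower, against 12.8% of all genes. The groups did not overlap for 6 members, higher at 6 months for Per3, Cry2, Nr1d1 and Nr1d2 and lower for Npas2 and Cry1, against 3.5% of all genes.

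Per3 rose by 2.69 ± 0.53 in log2 units (edgeR adjusted p = 0.0309), where the guide comparison at 3 weeks had given 2.56. Nr1d2 had 1.02 ± 0.22 (edgeR adjusted p = 0.0467), just past the fold threshold, where the guide comparison had given 1.19. Cry2 had an edgeR adjusted p of 0.0237 but a log2 fold change of 0.86 ± 0.16, below the threshold, and Nr1d1 had 1.41 ± 0.33 (edgeR adjusted p = 0.0621). On the other side stood Cry1 (-1.16 ± 0.35, edgeR adjusted p = 0.140), Npas2 (-1.48 ± 0.54, 0.233), Arntl (-0.91 ± 0.39, 0.314), Per1 (-0.92 ± 0.38, 0.306, where the guide comparison had given 0.54) and Clock (-0.36 ± 0.16, 0.322). Per2 had 0.67 ± 0.36 (edgeR adjusted p = 0.464). No member passed without Rosa26 3 weeks replicate 1, 2, 3 or 4 or without Rosa26 6 months replicate 3 or 4, and only Per3 passed without Rosa26 6 months replicate 1 or 5. Without Rosa26 3 weeks replicate 5, Nr1d1 passed as well.

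In the HIRA arm the times did not separate. None of the 10 members passed both thresholds or had an unadjusted p under 0.05 in the edgeR test of 6 months against 3 weeks, against 0.0569% and 8.95% of all genes, and DESeq2 and limma-voom called 0. The groups overlapped for all 10, where 1.47% of all genes did not. Log2 fold changes ranged from -0.32 ± 0.35 (Cry1) to 0.26 ± 0.36 (Per2), with edgeR adjusted p-values from 0.851 to 0.999. Per3 was at 0.03 ± 0.47, Nr1d2 at -0.19 ± 0.21, Nr1d1 at -0.05 ± 0.33, Npas2 at 0.06 ± 0.55 and Arntl at 0.00 ± 0.39. The 95% intervals reached from -1.02 to 1.13 for Npas2, from -0.89 to 0.96 for Per3 and from -0.61 to 0.23 for Nr1d2, so differences within these bounds are not excluded. Without HIRA 6 months replicate 5, 0 members passed, Per2, Per3 and Cry2 turned direction (-0.0036, -0.09 and -0.014), as did Arntl (0.17), and Npas2 and Nr1d1 were at 0.30 and -0.29. Without single libraries Cry1 ranged from -0.62 (without HIRA 6 months replicate 1) to -0.091, Nr1d2 from -0.30 to -0.028 and Per1 from -0.71 to -0.023.

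**Figure D3:**
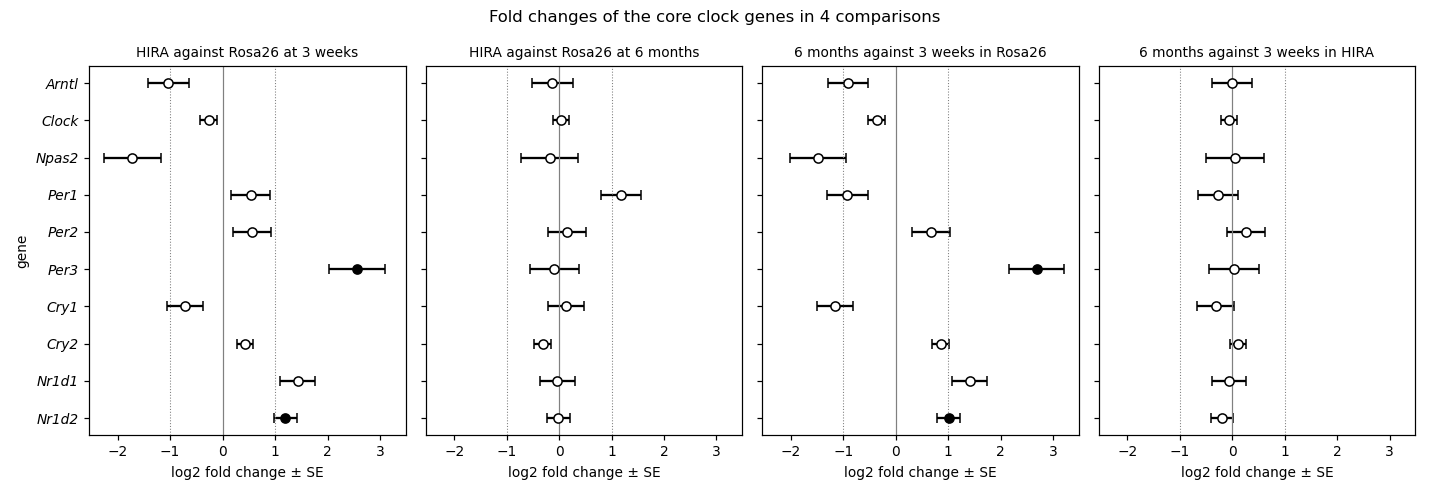
log2 fold change ± SE (edgeR) of the 10 genes in 4 comparisons, with filled points past both thresholds and dotted lines at the fold threshold. The panels of HIRA against Rosa26 at 3 weeks and of Rosa26 over time share the Rosa26 3 weeks libraries and place Per3 and Nr1d2 past the thresholds, and the points of HIRA over time lie between -0.32 and 0.26.

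Phase relations were read library by library. Libraries with high Arntl tended to have high Npas2, Clock and Cry1 and low Per2, Per3, Cry2, Nr1d1 and Nr1d2. One measure of this was the log2 CPM of Nr1d1 minus that of Arntl, in which gene length adds the same constant to every library, so that only differences between libraries are read. It was 0.18, -0.04, 1.37, 0.25 and 1.57 in Rosa26 3 weeks, 3.95, 2.69, 1.91, 4.68 and 3.55 in HIRA 3 weeks, 3.26, 2.73, 4.33, 3.71 and 1.90 in Rosa26 6 months and 0.85, 3.44, 2.08, 4.94 and 4.89 in HIRA 6 months. Rosa26 3 weeks (0.67 ± 0.74, SD, n = 5) did not overlap with HIRA 3 weeks (3.36 ± 1.08) or Rosa26 6 months (3.19 ± 0.93), and HIRA 6 months (3.24 ± 1.78) spanned both, with replicate 1 inside the Rosa26 3 weeks range and replicate 4 the highest of all 20.

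Per3 minus Arntl takes off the same Arntl value and is therefore no independent placing of the libraries. It lay between -3.97 and -2.45 in Rosa26 3 weeks, between -2.02 and 2.59 in HIRA 3 weeks, between -1.17 and 2.63 in Rosa26 6 months and between -2.55 and 2.81 in HIRA 6 months, where replicate 1 again fell within the Rosa26 3 weeks range. At the other end were HIRA 3 weeks replicate 4 (2.59), Rosa26 6 months replicate 3 (2.63) and HIRA 6 months replicate 4 (2.81), libraries of 3 different groups. These 3 libraries had 149, 155 and 116 counts of Arntl and 909, 973 and 827 counts of Per3. Per2 minus Cry1 ran from -2.17 to -0.64 in Rosa26 3 weeks, from -1.60 to 2.05 in HIRA 3 weeks, from -0.02 to 1.89 in Rosa26 6 months and from -1.67 to 2.72 in HIRA 6 months, so on this pair, which shares no gene with the first, HIRA 3 weeks replicates 1 and 3 and HIRA 6 months replicate 1 were inside the range of Rosa26 3 weeks and all of Rosa26 6 months was above it. Nr1d1 minus Per2, a pair from the same side, lay between 1.36 and 4.22 over all 20 libraries. Its group means also differed, at 2.35 ± 0.64 in Rosa26 3 weeks and 3.45 ± 0.63 in HIRA 3 weeks (SD). At 6 months they were 3.17 ± 0.47 in Rosa26 and 2.99 ± 0.23 in HIRA.

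**Figure D4:**
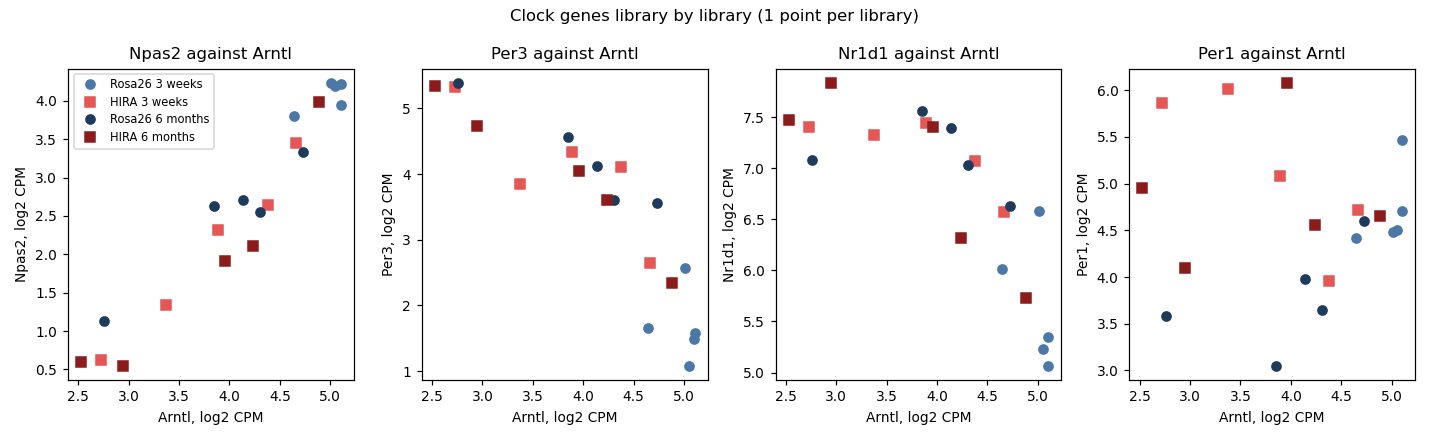
log2 CPM of Npas2, Per3, Nr1d1 and Per1 against that of Arntl, with 1 point per library and a colour and shape per group. Npas2 follows Arntl upwards, Per3 and Nr1d1 run downwards, and Per1 follows neither; the Rosa26 3 weeks libraries sit at the Arntl-high end, where HIRA 3 weeks replicate 3, Rosa26 6 months replicate 5 and HIRA 6 months replicate 1 join them.

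The relations were also measured on the deviations of all 20 libraries from their group means, pooled over the groups; with 5 libraries a group, no r was taken within a single group. After the group mean of each gene was removed, the log2 CPM of Arntl and Nr1d1 had a Pearson r of -0.63 over 20 libraries (two-sided permutation p = 0.00739, adjusted over 45 pairs 0.0101) and a Spearman rho of -0.65 (permutation p = 0.00453, adjusted 0.00886), and r was -0.70 without the 2 libraries farthest out on Arntl. Arntl and Npas2 had the highest r, 0.96 (permutation p = 1e-05, the smallest that 100000 resamples can give, adjusted 0.0003; rho 0.86, p = 0.00025; r 0.95 without the 2 farthest). Arntl and Per3 had an r of -0.87 (permutation p = 0.00011, adjusted 0.000491; rho -0.78, p = 0.00107; r -0.82 without the 2 farthest). Per2 and Per3 had an r of 0.89 (permutation p = 3e-05, adjusted 0.000337; rho 0.86, p = 6e-05; r 0.82 without the 2 farthest).

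Over the 45 pairs, all 36 that left out Per1 had an adjusted p under 0.05 for r, with absolute r from 0.50 to 0.96, and 34 of them had one for rho, the exceptions being Clock with Per2 (0.0552) and Npas2 with Nr1d1 (0.0555). The signs fell into 2 sets, which were drawn up after the values were seen. The 6 pairs among Arntl, Clock, Npas2 and Cry1 were positive (0.71 to 0.96), the 10 pairs among Per2, Per3, Cry2, Nr1d1 and Nr1d2 were positive (0.66 to 0.89), and the 20 pairs between the sets were negative (-0.87 to -0.50). Without the HIRA 3 weeks group the last range was -0.93 to -0.43. Without HIRA 6 months replicate 5 the 3 ranges were 0.80 to 0.95, 0.59 to 0.90 and -0.90 to -0.57, the pairs of Per1 ran from -0.30 to 0.25, and Arntl with Nr1d1 had an r of -0.58. Cry1 thus stood with the activators and Cry2 with the other repressors. The 9 pairs of Per1 had an r from -0.15 to 0.14, and none had an adjusted p under 0.05 for r (smallest 0.696) or rho (smallest 0.434). A first principal component of the 10 genes held 74.5% of their variance within groups. Per3 (r = 0.97 with the component), Arntl (-0.95) and Npas2 (-0.95) were the closest to it. The second component held 10.9% and was mostly Per1, with a loading of 0.96. All 20 points share the normalization and the members are not replicates of each other.

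**Figure D5:**
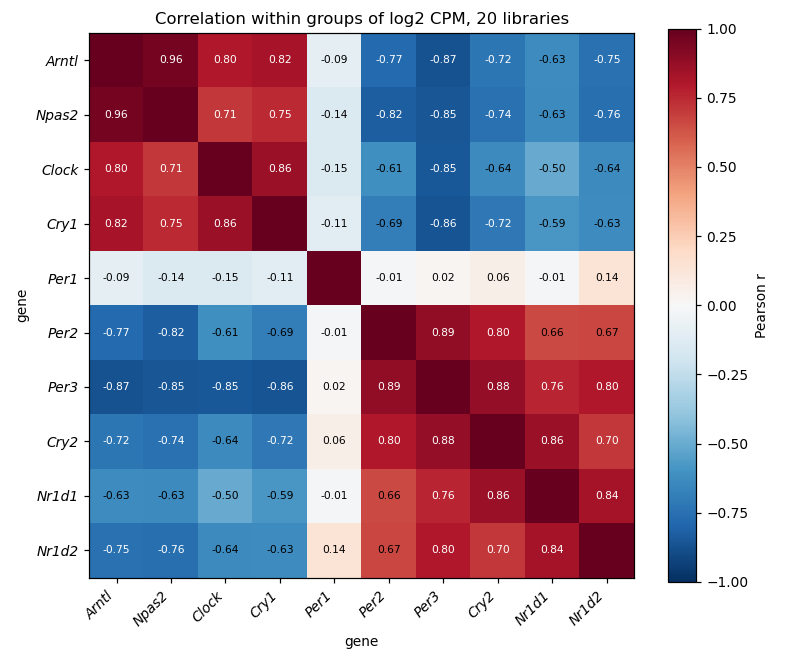
Pearson r between members over 20 libraries after removal of the group means. The block of Arntl, Npas2, Clock and Cry1 and the block of Per2, Per3, Cry2, Nr1d1 and Nr1d2 are positive inside and negative between, and the row of Per1 stays between -0.15 and 0.14.

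The members varied widely between mice of the same group. Pooled over groups, the within-group SD of log2 CPM was 0.99 for Npas2, 0.88 for Per3, 0.73 for Arntl, 0.67 for Per1, 0.66 for Cry1, 0.65 for Per2 and 0.60 for Nr1d1, against a median of 0.20 over 12903 genes with a mean of at least 1 CPM. Npas2 was at percentile 98.8 of these genes, Per3 at 98.1, and the other 5 between 92.6 and 95.8. Nr1d2 (0.39, percentile 81.3), Cry2 (0.28, 67.4) and Clock (0.27, 66.7) were the steadiest. The SD was larger in HIRA than in Rosa26 for 8 of 10 members at 3 weeks (42.8% of the 12903 genes) and for 9 of 10 at 6 months (65.3%), and larger in Rosa26 6 months than in Rosa26 3 weeks for 7 of 10 (53.7%). Without single libraries these counts ran from 7 to 8, from 8 to 10 and from 6 to 8, with 8 at 6 months without HIRA replicate 1, and 9 without HIRA replicate 5, where the share of all genes was 52.1%. For Arntl the SD was 0.19 log2 CPM in Rosa26 3 weeks, 0.78 in HIRA 3 weeks, 0.74 in Rosa26 6 months and 0.96 in HIRA 6 months. These differences of spread were not tested.

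Genes with the pattern most like a member were listed by Pearson r of the deviations from the group mean over the 20 libraries, as a description. For Arntl the highest were Dtx4 (r = 0.97), Larp1 (0.96), Leo1 (0.93), Lgalsl (0.93) and Chka (0.91), and the lowest were Dbp (-0.89), Wee1 (-0.87), Tef (-0.85), Usp2 (-0.84) and Fnip2 (-0.82). Dbp and Tef are transcription factors of the PAR bZIP family that bind D-boxes, Wee1 is a kinase that restrains entry into mitosis, and Chka is choline kinase alpha. For Per2, with 1 unnamed gene model ahead of Dbp left out, the highest were B4galnt3 (0.88), Dclre1a (0.87), Dbp (0.86), Thrsp (0.86) and Slc46a3 (0.85), and the lowest were Spns1 (-0.91), Clpx (-0.87), B3gat3 (-0.86), Pnrc1 (-0.845) and Crot (-0.84). With the members ranked among all 12903 genes, the places in likeness to Arntl were 2 for Npas2, 15 for Cry1 and 21 for Clock at the upper end and 12901 for Per3, 12889 for Per2, 12881 for Nr1d2, 12871 for Cry2 and 12791 for Nr1d1 at the lower end. In likeness to Per2 they were 1 for Per3, 15 for Cry2, 118 for Nr1d2 and 138 for Nr1d1 at the upper end. At the lower end they were 12897 for Npas2, 12887 for Arntl, 12844 for Cry1 and 12725 for Clock. Per1 was at 8423 for Arntl and 6278 for Per2.

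The other genes of the pathway were 20, of which all were tested. At 3 weeks 4 of them passed both thresholds, against 0.114% of all genes, all higher in HIRA, and 8 had an unadjusted p under 0.05, against 8.87%. The 4 were Dbp, a clock output factor (4.55 ± 0.79, edgeR adjusted p = 0.0251), Ciart, a repressor of the activator complex (3.62 ± 0.71, 0.0379), Usp2, a deubiquitinase (2.24 ± 0.42, 0.0309), and Tef (1.47 ± 0.29, 0.0412). The list as a whole had a median absolute log2 fold change of 0.18, against 0.19 over all genes. The groups did not overlap for 4 genes that were higher and 1 that was lower, against 2.69% of all genes in either direction. Nfil3, which competes with Dbp for D-boxes, had -1.12 ± 0.28 (edgeR adjusted p = 0.117), with all HIRA libraries below all controls, and Bhlhe40, an E-box repressor, had 1.07 ± 0.26 (edgeR adjusted p = 0.101). Its paralog Bhlhe41, named after its values were seen, had 2.16 ± 0.67 (edgeR adjusted p = 0.242). Rora, a nuclear receptor that activates Arntl from the element that Nr1d1 and Nr1d2 occupy, was at 0.09 ± 0.11 (edgeR adjusted p = 0.902).

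In the controls over time 2 of the 20 passed, against 0.162% of all genes, Dbp (4.40 ± 0.79, edgeR adjusted p = 0.0227) and Tef (1.35 ± 0.29, 0.0467), both higher at 6 months, and 6 had an unadjusted p under 0.05, against 12.8%. The groups did not overlap for 5 genes that were higher, among them Bhlhe41 and Ciart, and 1 that was lower, Nfil3. Over all genes the share in either direction was 3.5%. Bhlhe41 had 2.30 ± 0.67 (edgeR adjusted p = 0.130). Ciart had 2.20 ± 0.71 (edgeR adjusted p = 0.177), Nfil3 -0.63 ± 0.28 (0.337), Bhlhe40 0.22 ± 0.26 (0.796), Usp2 0.69 ± 0.42 (0.536) and Rora -0.05 ± 0.11 (0.908). At 6 months HIRA against Rosa26 gave 0 of 20 past both thresholds in the edgeR test and 3 at an unadjusted p under 0.05, close to the 15.5% of all genes. These were Usp2 (1.46 ± 0.40, edgeR adjusted p = 0.0782) and, named after their values were seen, Fbxl21 (-0.46 ± 0.15, 0.135) and Csnk1e (0.27 ± 0.13, 0.306), while Dbp was at 0.33 ± 0.64 (edgeR adjusted p = 0.866). In the HIRA arm over time 0 of 20 passed and 2 had an unadjusted p under 0.05, close to the 8.95% of all genes, Bhlhe40 (-0.57 ± 0.26, edgeR adjusted p = 0.537) and, named after its value was seen, the kinase gene Gsk3b (0.18 ± 0.08, 0.537). In the test of the difference between times 0 of 20 passed and 4 had an unadjusted p under 0.05, against 6.62% of all genes, Dbp (-4.22 ± 1.00, edgeR adjusted p = 0.614), Tef (-1.38 ± 0.40, 0.614), Ciart (-2.46 ± 0.92, 0.688) and Bhlhe40 (-0.78 ± 0.37, 0.746).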

How the data were processed

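Poly(A) RNA of 20 livers, 5 per group, was made into directional libraries. The authors trimmed reads with Trim Galore where needed and aligned them to mm10 with STAR. The deposited gene counts are raw; the study's methods name HOMER for counting, the submitters' processing notes list STAR, HTSeq and Cufflinks without roles, and use of strand in counting is not given in the sources used here. The deposited FPKM values, made by the authors, served only as an alternative, with blank cells as 0.

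Members were matched by gene name, and the members, lists and tests were chosen with earlier results of these data known. Of 55421 genes, 22854 had no count and 9700 had 1 to 9 in all, which left 22867 for the main test. This was edgeR 4.0.16 (quasi-likelihood, TMM normalization, 4 group means over all 20 libraries, Benjamini-Hochberg adjustment) in R 4.3.3. Called genes had an absolute log2 fold change over 1 and an adjusted p under 0.05, as in the study's own criteria. log2 CPM used a prior count of 2, and RPKM is TMM-scaled CPM per kilobase of GENCODE M21 exon union (GRCm38), to which 98.5% of gene IDs matched. Correlations used deviations from group means, with 100000 permutations within groups (scipy 1.17.1). DESeq2 1.42.0, limma-voom and limma on log2(FPKM + 1) or log2(FPKM + 0.1) (limma 3.58.1), other scalings, filters and samples were alternatives. The scripts were tested on simulated data. Named in the text are all members, the targeted gene, pathway genes called in any comparison or listed by name (1 of the latter is not reported here), and for Arntl and Per2 the 5 non-member genes with an official symbol that had the highest and the 5 that had the lowest r. The labels number 5 replicates per group, and p-values measure only the spread between these samples. No 2 libraries of a group agreed within sampling noise (chi-square per degree of freedom 13.7 to 109 over 40 pairs). Depth was 19916430 to 24079736 counts per library.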

Additional observations from a re-analysis of the deposited data

Results flagged for a closer look

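In 3 of the 40 groups of 5 libraries (10 genes in 4 groups), 1 library stood apart from the other 4 by Dixon's criterion, which chance meets in about 1 in 20 groups. All 3 were in Rosa26 3 weeks. Replicate 3 was the lowest for Arntl, at 4.644 log2 CPM where the next was 5.009 and the highest 5.104. Replicate 4 was the highest for Per1, at 5.467 log2 CPM where the next was 4.711 and the lowest 4.416. Replicate 5 was the highest for Cry2, at 5.092 log2 CPM where the next was 4.711 and the lowest 4.612. The last of these was also the highest Rosa26 3 weeks library for Per3 and Nr1d1, and leaving it out made Nr1d1 pass both thresholds in HIRA against Rosa26 at 3 weeks and in Rosa26 over time, but not in the difference of the guide effects between times, where 0 members passed.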

How the results depend on the processing

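In HIRA against Rosa26 at 3 weeks, the 2 called members became 3 with DESeq2 (Nr1d1 added), 1 with limma-voom (Nr1d2), 4 with only the libraries of the contrast (Npas2, Per3, Nr1d1 and Nr1d2), 0 with limma on log2(FPKM + 1) and 0 on log2(FPKM + 0.1), and 0 to 2 without single libraries. In Rosa26 over time the 2 became 4 with DESeq2 (Per3, Cry1, Nr1d1 and Nr1d2) and 4 with only the libraries of the contrast. The count was 3 with no filter on low counts (Nr1d1 added) and 3 with no fold threshold (Cry2 added). It was 0 with limma-voom, 0 on either FPKM scale and 0 to 3 without single libraries. At 6 months DESeq2 called 1, Per1, and every other setting 0. The other 2 comparisons stayed at 0 members in every setting run. Calls over all genes moved from 26, 76, 37 and 13 (3 weeks, 6 months, Rosa26 and HIRA over time) to 69, 127, 156 and 74 with DESeq2, 61, 0, 67 and 8 with only the libraries of the contrast, 13, 71, 27 and 6 with limma-voom, 4, 14, 1 and 2 on log2(FPKM + 1) and 6, 44, 4 and 1 on log2(FPKM + 0.1). The cause was not tested.

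Same-numbered libraries correlated over 0.1 in 14 of 30 pairs (-0.309 to 0.335). Differently numbered libraries were not compared, so whether the numbers pair the samples was not tested. The replicate block gave 2 members at 3 weeks, 3 in Rosa26 over time (Nr1d1 added) and 0 elsewhere, 27, 72, 61 and 26 genes in all, and an r of -0.672 for Arntl with Nr1d1. That r was -0.508 to -0.723 without single libraries.

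Members turned direction only at 6 months and in HIRA over time, and those that turned had small values in the reported test (up to 0.18 at 6 months and 0.26 in HIRA over time). In HIRA over time, Arntl was at 0.00135 with no filter, Npas2 at -0.14 with limma-voom, -0.16 with the replicate block, and -0.16 and -0.33 on the FPKM scales, and Per3 at -0.095, -0.060, -0.024 and -0.041 in the same order. At 6 months Per2 was at -0.047 with limma-voom and -0.031 with the replicate block. Without single libraries the log2 fold changes at 6 months ran from -0.52 to 0.090 for Arntl, -0.076 to 0.14 for Clock, -1.18 to 0.067 for Npas2, -0.11 to 0.36 for Per2, -0.51 to 0.31 for Per3, -0.18 to 0.35 for Cry1, -0.27 to 0.18 for Nr1d1 and -0.12 to 0.14 for Nr1d2. Without single libraries the log2 fold changes in HIRA over time ran from -0.38 to 0.24 for Arntl, -0.14 to 0.065 for Clock, -0.93 to 0.52 for Npas2, -0.0036 to 0.63 for Per2, -0.39 to 0.47 for Per3, -0.014 to 0.24 for Cry2 and -0.29 to 0.16 for Nr1d1. Without turning direction, Per1 ran from 0.74 to 1.45 and Cry2 from -0.44 to -0.20 at 6 months, and at 3 weeks Per1 from 0.29 to 0.78 and Per2 from 0.19 to 0.74.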
